A study of Mus musculus with 6 samples.

Results

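The EGF receptor family and its ligands were examined in the RNA of mouse corneas. The 10 genes were taken by name from the family: the receptors Egfr, Erbb2 and Erbb3, and the ligands Areg, Ereg, Hbegf, Btc, Tgfa, Egf and Epgn. All 10 were found among the 55421 gene identifiers of each library, and all 10 were among the 15209 genes with enough counts to be tested. The corneas came from mice aged 20 weeks, in 3 wildtype libraries (W1 to W3) and 3 libraries from mice heterozygous for a mutant Pax6 (M1 to M3). Pax6 encodes a transcription factor of eye development and corneal epithelial identity, and loss of a copy underlies aniridia and its corneal disease. The series design calls the libraries biological replicates. The labels give neither the mutant allele, the strain nor the number of animals behind a library, and p-values measure the spread between these libraries.

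Receptors of the EGF family are tyrosine kinases of the cell surface that pair on binding a ligand and switch on the RAS-MAPK and PI3K-AKT cascades. EGFR binds all 7 ligands listed here, ERBB2 binds none of its own and serves as a partner, and ERBB3 binds neuregulins and signals through its partners because its own kinase is weak. The ligands are made as membrane-anchored precursors and are released by ADAM proteases. In the cornea, EGFR signalling is known for driving the migration and proliferation of the epithelium after a wound.

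Among the 10 genes, 2 ligands fell in mutant corneas, Hbegf and Epgn, and no gene rose in the quasi-likelihood fit of edgeR, with p-values adjusted by Benjamini and Hochberg's method over all tested genes and a threshold of 0.05. Over all tested genes 4.46% were called lower, 5.59% higher and 10.1% in either direction. Without adjustment, 3 members were lower and 2 higher at p under 0.05, beside 10.8% and 13% of all tested genes. Mutant and wildtype libraries did not overlap for 7 of the 10 genes: Egfr, Hbegf, Btc and Epgn were lower in every mutant library, and Areg, Ereg and Tgfa higher. Of all tested genes 31.9% did not overlap, 14.7% being lower and 17.1% higher in mutant. Levels are given as CPM, read counts scaled by each library's total and its TMM factor, a correction for composition.

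**Figure D1:**
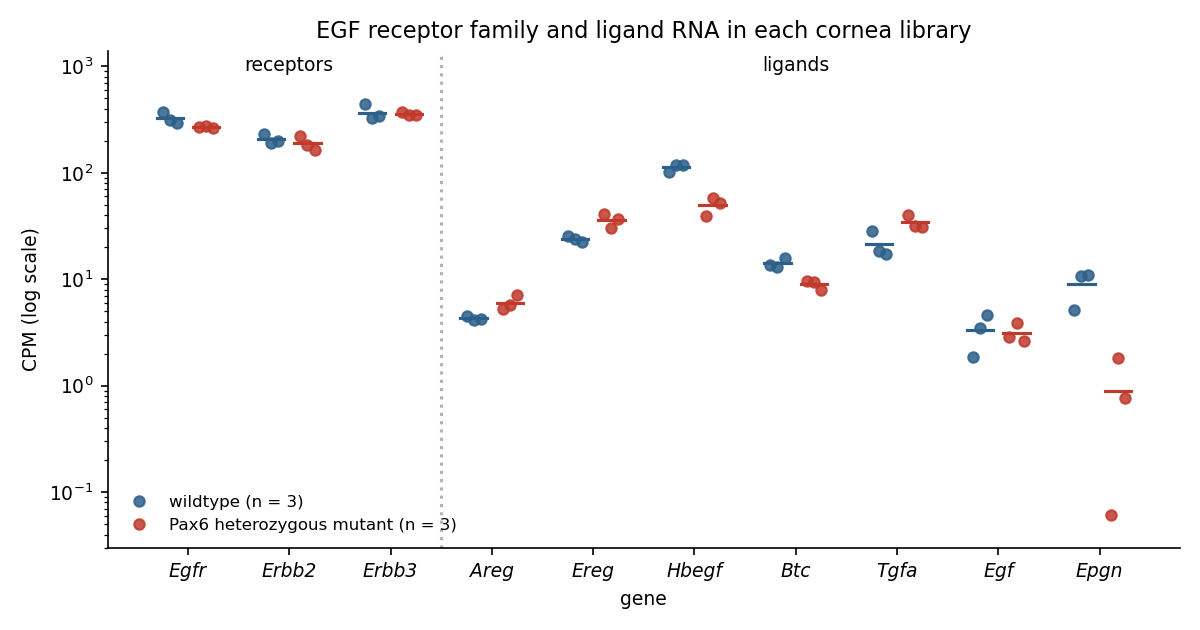
Normalised abundance (CPM, log axis) of the 3 receptors and 7 ligands. Each point is a library, blue for wildtype and red for mutant (3 each), and each short line is the group mean. Hbegf and Epgn sit lower in all 3 mutant libraries, and Areg, Ereg and Tgfa sit higher, while the points of Erbb2, Erbb3 and Egf overlap.

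Of these ligand genes, 4 lie together on chromosome 5 of GRCm38, within 376 kb from 91027464 to 91402994, in the order Epgn, Ereg, Areg and Btc. Epgn, Ereg and Areg are on the plus strand and Btc on the minus strand. The sequences just before the annotated starts of 3 of them are shown because these neighbours took different directions in mutant corneas: Epgn fell, Areg was higher in every mutant library without passing the test, and Btc was lower in every mutant library without passing the test. The sequences are RefSeq's, of build GRCm38.p6, on the strand of the gene. Capitals mark matches, on either strand, to 4 motifs: TATAAA, the core of a TATA box; the AP-1 site TGANTCA, where N is any base; the cAMP response element TGACGTCA; and the GC box GGGCGG.
Epgn, chr5:91027267-91027463, plus strand: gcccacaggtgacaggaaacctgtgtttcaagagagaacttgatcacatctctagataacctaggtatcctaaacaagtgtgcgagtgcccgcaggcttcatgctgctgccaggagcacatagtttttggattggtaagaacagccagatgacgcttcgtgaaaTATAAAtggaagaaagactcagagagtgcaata
Areg, chr5:91139349-91139598, plus strand: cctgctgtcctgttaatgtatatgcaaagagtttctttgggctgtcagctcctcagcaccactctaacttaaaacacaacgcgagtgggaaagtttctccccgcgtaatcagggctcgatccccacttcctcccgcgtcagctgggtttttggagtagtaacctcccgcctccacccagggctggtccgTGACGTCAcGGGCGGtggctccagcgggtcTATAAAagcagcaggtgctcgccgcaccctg
Btc, chr5:91402995-91403244, minus strand: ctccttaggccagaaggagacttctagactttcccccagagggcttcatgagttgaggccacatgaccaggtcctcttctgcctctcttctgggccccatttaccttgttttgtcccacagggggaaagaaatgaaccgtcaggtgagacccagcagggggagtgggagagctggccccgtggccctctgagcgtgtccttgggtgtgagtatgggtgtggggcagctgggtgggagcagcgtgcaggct

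The TATAAA match began 33 bases before the GENCODE start of Epgn and 31 bases before that of Areg, and the Btc sequence held none of the 4 motifs. Counted from the RefSeq start, the match began 86 bases before in Epgn and 31 bases before in Areg. The printed Epgn sequence stops at the GENCODE start, and its last base lies 54 bases before the RefSeq start. Areg held a cAMP response element 61 bases before its start and a GC box beginning 52 bases before it, next to each other. RefSeq windows of 300 bases (250 before to 50 after a start) were searched for 7 members: Egf, Epgn, Areg, Btc, Tgfa, Egfr and Erbb2. Hbegf, on chromosome 18, was left out of this search, and Ereg and Erbb3 had no window. Of 32851 such windows of all genes, 13.6% held TATAAA, 7.81% TGANTCA, 1.79% TGACGTCA and 35.7% GGGCGG. Among the 7 members TATAAA matched only in Epgn and Areg, TGACGTCA only in Areg, and TGANTCA in none. GGGCGG matched in Areg, Tgfa and Egfr. These are matches of letters and not measured binding.

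The receptors were abundant and close in level between genotypes. Egfr (chromosome 11, 16752203 to 16918158), the receptor of all 7 ligands, had 267, 275 and 261 CPM in M1, M2 and M3 and 370, 312 and 295 CPM in W1, W2 and W3. All mutant libraries were lower, by a narrow margin. The log2 fold change of Egfr was -0.28 ± 0.12 (SE), with a 95% confidence interval from -0.57 to 0.0043 and an adjusted p of 0.22 (edgeR). Erbb2 (chromosome 11, 98412470 to 98437716), the partner without a ligand, had 220, 182 and 165 CPM in mutant and 229, 191 and 198 CPM in wildtype, and the groups overlapped. Its log2 fold change was -0.12 ± 0.14 (interval -0.46 to 0.21, adjusted p = 0.67). Erbb3 (chromosome 10, 128567523 to 128589652), the neuregulin receptor, had 375, 348 and 348 CPM in mutant and 438, 325 and 339 CPM in wildtype. W1 was the highest library for each of these receptors. The log2 fold change of Erbb3 was -0.04 ± 0.14 (interval -0.37 to 0.29, adjusted p = 0.90), and it was 0.10 without W1. Each receptor interval leaves out a change of 2-fold in either direction, and does not show that the levels were equal.

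Hbegf (chromosome 18, 36504927 to 36515805, minus strand), heparin-binding EGF-like growth factor, was the ligand with the smallest p. It had 39.5, 57.6 and 52.4 CPM in M1, M2 and M3, from 646, 1038 and 1164 counts. The wildtype libraries W1, W2 and W3 held 101, 119 and 118 CPM, from 1781, 2101 and 2202 counts. The highest mutant library stood well under the lowest wildtype library. Hbegf thus fell from 113 ± 10.1 to 49.9 ± 9.30 CPM (SD, n = 3 each), 2.26-fold, with a log2 fold change of -1.18 ± 0.16 (SE), an interval from -1.55 to -0.80 and an adjusted p of 0.0038 (edgeR). With any 1 library left out it remained called, at a log2 fold change of -1.29 to -1.03 and an adjusted p of 0.0020 to 0.024.

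Epgn (chromosome 5, 91027464 to 91035215, plus strand) encodes epigen, a ligand of epithelia, and fell most among the members by fold. M1, M2 and M3 held 1, 33 and 17 counts, equal to 0.0612, 1.83 and 0.765 CPM. W1, W2 and W3 held 91, 190 and 204 counts, equal to 5.16, 10.8 and 10.9 CPM. The groups were well apart, but the mutant libraries differed widely among themselves and W1 stood at a lower level than W2 and W3. The mean was 0.886 ± 0.891 CPM in mutant and 8.95 ± 3.28 CPM in wildtype (SD, n = 3 each), 9.99-fold lower, with a log2 fold change of -3.32 ± 0.84 (SE), an interval from -5.26 to -1.38 and an adjusted p of 0.044 (edgeR). The call was lost without M3 (adjusted p = 0.17), without W2 (0.12), without W3 (0.092), and narrowly without composition factors (0.051) or by limma-voom (0.050). Over 19 alternatives the adjusted p of Epgn ran from 9.06e-09 to 0.20, and its log2 fold change from -4.35 to -2.79.

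Ereg (chromosome 5, 91074622 to 91093646), epiregulin, was higher in every mutant library. It had 41.3, 30.4 and 36.9 CPM in M1, M2 and M3 against 25.6, 23.9 and 22.2 CPM in W1, W2 and W3. The log2 fold change was 0.60 ± 0.16 (SE, interval 0.23 to 0.96), and its adjusted p of 0.052 (edgeR) just missed the threshold. It passed in 6 of 19 alternatives, over which the adjusted p ran from 0.029 to 1, among them DESeq2 (adjusted p = 0.031) and the fit without W1 (0.045). Tgfa (chromosome 6, 86195223 to 86275719), transforming growth factor alpha, had 40.1, 31.8 and 30.7 CPM in mutant and 28.3, 18.4 and 17.2 CPM in wildtype, where W1 came close to the mutant libraries. Its log2 fold change was 0.68 ± 0.22 (interval 0.17 to 1.20, adjusted p = 0.099). Without W1 it was 0.94 with an adjusted p of 0.012 (edgeR), while over 19 alternatives the adjusted p ran from 0.0093 to 1 and passed in 4. Areg (chromosome 5, 91139599 to 91148432), amphiregulin, was scarcer, at 5.26, 5.72 and 7.16 CPM in mutant and 4.48, 4.14 and 4.22 CPM in wildtype. Its log2 fold change was 0.50 ± 0.30 (interval -0.19 to 1.19, adjusted p = 0.37). The interval held 0, although Areg was higher in every mutant library.

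Btc (chromosome 5, 91357261 to 91402994), betacellulin, had 9.67, 9.38 and 7.97 CPM in M1, M2 and M3 and 13.7, 13 and 15.7 CPM in W1, W2 and W3. All mutant libraries were lower, yet the adjusted p was 0.091 at a log2 fold change of -0.65 ± 0.21 (SE, interval -1.12 to -0.18, edgeR). It passed only by limma-voom with quality weights (adjusted p = 0.038; 0.038 to 1 over 19 alternatives). Egf (chromosome 3, 129677565 to 129755316), the founding ligand of the family, was near the low end, with 33 to 87 counts a library. Egf had 2.88, 3.88 and 2.66 CPM in mutant and 1.87, 3.52 and 4.65 CPM in wildtype, and the groups overlapped. Its interval was wide, from -1.14 to 0.95 around a log2 fold change of -0.09 ± 0.46 (adjusted p = 0.93). Exons of Ereg, Tgfa, Egf and Erbb2 overlap genes on the opposite strand over 3.42%, 1.82%, at most 5.38% (in each of 2 genes) and 0.173% of their length. The partners of Ereg, Tgfa and Egf had 0 to 17 counts a library, and that of Erbb2 had 127 to 314. No source used here states whether reads were counted by strand. How far reads in the shared bases touch the counts of these members is therefore not known.

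**Figure D2:**
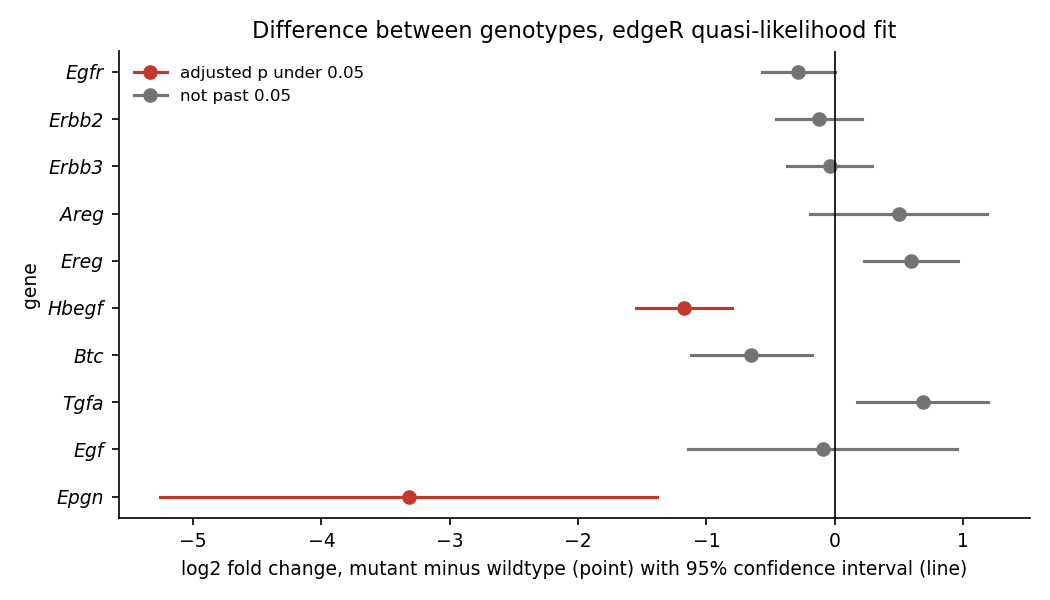
Log2 fold change of each member, mutant minus wildtype (points), with its 95% confidence interval (lines) from the edgeR fit, red where the adjusted p is under 0.05. Hbegf at -1.18 and Epgn at -3.32 are called; the intervals of Ereg, Tgfa and Btc leave out 0 before adjustment, and those of the receptors, Areg and Egf hold it.

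**Figure D3:**
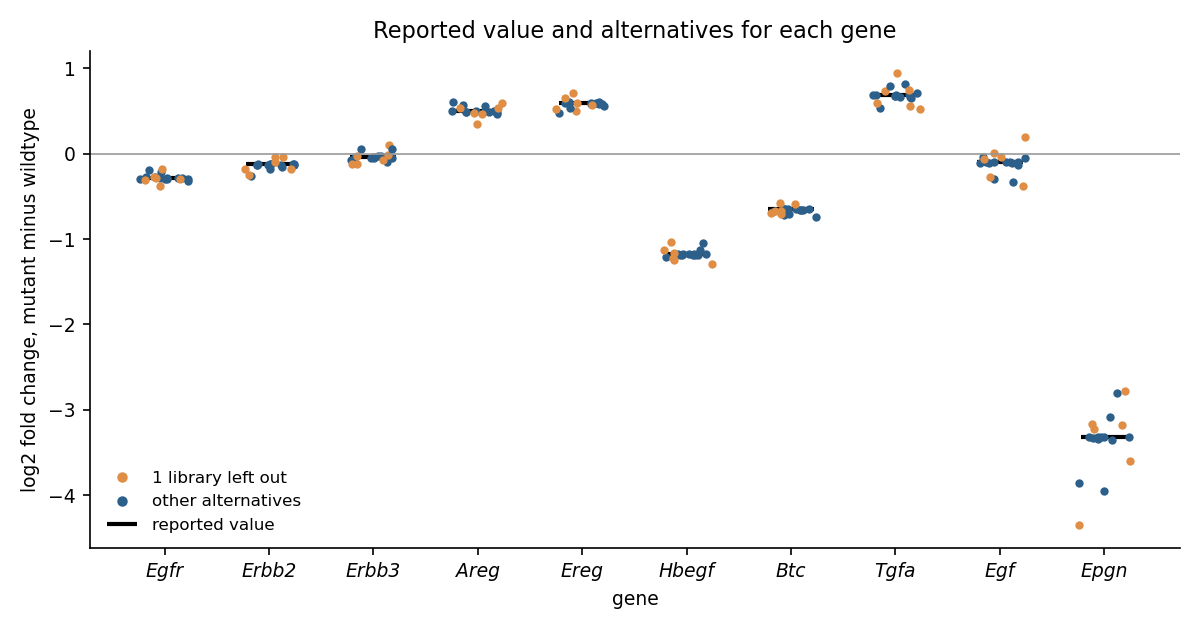
Log2 fold change (mutant minus wildtype) of each member in the reported fit (black line) and in 19 alternatives, orange where a single library was left out and blue otherwise. Hbegf stays between -1.29 and -1.03 and Epgn spreads from -4.35 to -2.79, while Erbb3 and Egf lie on both sides of 0.

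Levels were compared between genes as CPM per kb of annotated exon. Among the receptors the order was Erbb3, Erbb2 and Egfr in each of the 6 libraries. Their wildtype levels were 61.1 ± 10.3, 39.5 ± 3.92 and 28.7 ± 3.46 CPM per kb (SD, n = 3), higher than 97.3%, 95.4% and 93.2% of tested genes. In wildtype, Hbegf was the leading ligand at 23.3 ± 2.09 CPM per kb, followed by Ereg at 5.79 ± 0.418, Epgn at 4.96 ± 1.82, Areg at 3.53 ± 0.145, Tgfa at 3.28 ± 0.937, Btc at 3.12 ± 0.307 and Egf at 0.297 ± 0.124. The ranges of neighbours from Ereg to Btc in this order overlapped. Ereg, at 5.38 to 6.21 CPM per kb, nevertheless lay above all wildtype values of Areg, Tgfa and Btc, and the wide range of Epgn spanned the gap. Only Hbegf at the top and Egf at the bottom stood apart from every other ligand. In mutant corneas, Hbegf at 10.3 ± 1.92 and Ereg at 8.77 ± 1.33 CPM per kb overlapped. Tgfa at 5.27 ± 0.792 and Areg at 4.98 ± 0.814 followed and overlapped each other. Btc at 1.99 ± 0.201 was next, and Epgn at 0.490 ± 0.493 overlapped Egf at 0.278 ± 0.0581. Part of this order depends on the length used. Per kb of the longest transcript, Hbegf at 17.2 ± 3.22 no longer overlapped Ereg at 8.77 ± 1.33 in mutant, and Tgfa at 7.55 ± 1.13 overlapped Ereg and stood above Areg at 4.98 ± 0.814. In wildtype Tgfa at 4.70 ± 1.34 then stood above Areg at 3.53 ± 0.145, and the receptors kept their order in each library.

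The makeup of the ligand RNA thus differed between genotypes. The 7 ligands summed to 31.1, 32.3 and 32.8 CPM per kb in M1, M2 and M3 and to 41.2, 45.9 and 45.8 CPM per kb in W1, W2 and W3, all mutant sums being lower. Of this sum, Hbegf made up 52.6 ± 1.63% in wildtype and 32.1 ± 5.36% in mutant (SD, n = 3 each), and Epgn 11.1 ± 3.56% and 1.51 ± 1.52%. Ereg made up 13.2 ± 1.73% in wildtype and 27.4 ± 4.69% in mutant, Tgfa 7.51 ± 2.66% and 16.5 ± 2.94%, and Areg 7.995 ± 0.833% and 15.5 ± 2.17%. Btc held 7.06 ± 0.695% and 6.22 ± 0.769%, and Egf 0.662 ± 0.250% and 0.868 ± 0.179%. With the longest transcript of each gene as its length, Hbegf made up 62.5% and 40.9%, Ereg 9.35% and 21.0%, and Egf 1.11% and 1.57% of the sum in wildtype and mutant. Within a library, where scaling plays no part, Hbegf stood to Ereg per kb as 3.36, 4.26 and 4.53 in W1, W2 and W3 and as 0.817, 1.62 and 1.21 in M1, M2 and M3. Per kb of the longest transcript these ratios were 5.63, 7.13 and 7.58 in wildtype and 1.37, 2.71 and 2.03 in mutant, so that Hbegf stood above Ereg in M1 too. Shares of a sum are tied to each other, and the comparison is a description with no test of its own.

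**Figure D4:**
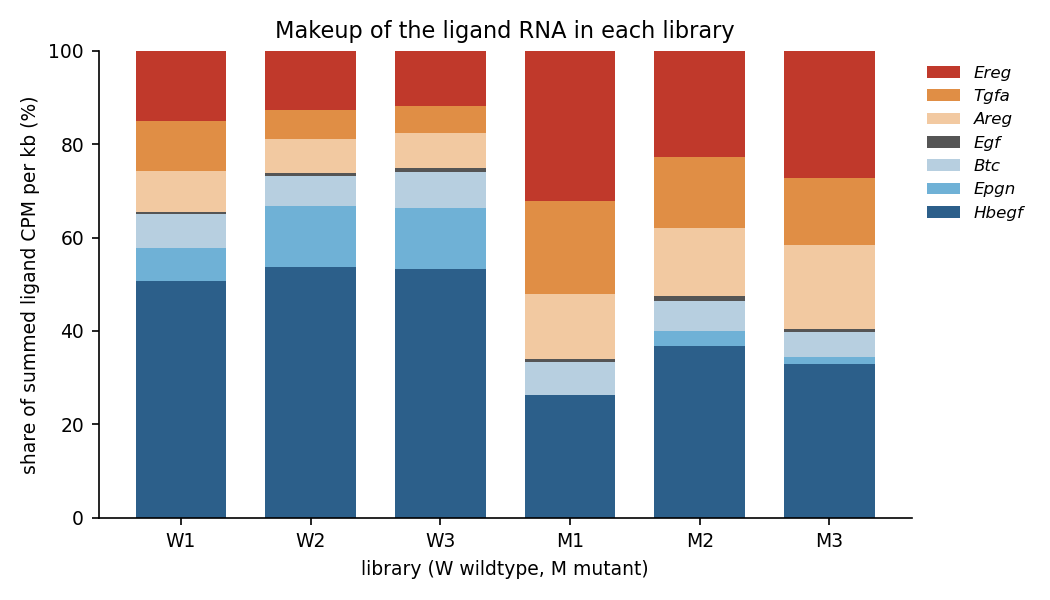
Share of each ligand (percent) in the summed ligand CPM per kb, a stacked bar for each library, wildtype at left and mutant at right. Hbegf takes 50.7% to 53.8% of each wildtype bar and 26.3% to 36.9% of each mutant bar, and Ereg takes 11.7% to 15.1% and 22.8% to 32.1%.

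Of the other receptor and its ligands, Erbb4, which binds neuregulins and some EGF-type ligands, was low at 3.80, 1.498 and 3.56 CPM in mutant and 0.0567, 1.42 and 1.44 CPM in wildtype (log2 fold change 1.59 ± 0.91 SE, adjusted p = 0.35, edgeR). Nrg1, a neuregulin that binds ERBB3 and ERBB4, was the most abundant neuregulin. It had 28.0, 63.7 and 34.2 CPM in mutant against 104, 72.5 and 63.4 CPM in wildtype, where M2 lay within the wildtype range, with a log2 fold change of -0.93 ± 0.32 and an adjusted p of 0.11. Nrg2 was at 9.50 ± 4.39 and 9.63 ± 3.13 CPM (SD, n = 3 each). Nrg3 and Nrg4 had at most 15 counts in any library and were not tested.

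Among 8 genes of ligand shedding, Rhbdf2 rose and none fell. Over all tested genes 5.59% were called higher and 4.46% lower, shares that stand beside the counts of this list and those below. Rhbdf2 encodes iRhom2, which carries the protease ADAM17 to the cell surface. It had 82.8, 84.3 and 81.8 CPM in mutant and 60.4, 39.7 and 43.2 CPM in wildtype, a 1.74-fold rise with an adjusted p of 0.022 (edgeR), which was lost in 5 of 6 fits with a library left out (up to 0.084). Adam17, the main sheddase of several of these ligands, was at 65.7 ± 4.88 and 62.9 ± 3.63 CPM in mutant and wildtype (log2 fold change 0.06 ± 0.12, adjusted p = 0.81). Adam10, the sheddase of Egf and Btc precursors, was at 122 ± 5.34 and 93.2 ± 3.39 CPM, a log2 fold change of 0.39 ± 0.10 with an adjusted p of 0.055 that missed the threshold.

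Of 24 inhibitors of the receptors and their cascade, 3 rose and 2 fell. The risers were Cblb, a ubiquitin ligase that marks activated receptors for breakdown, Sh3kbp1, an adaptor of Cbl proteins in receptor uptake, and Socs3, a cytokine-induced inhibitor. Cblb rose from 24.9 ± 0.752 to 52.1 ± 7.18 CPM (adjusted p = 0.0036, edgeR) and held with any library left out. Sh3kbp1 rose from 3.49 ± 0.557 to 12.6 ± 3.63 CPM and was lost without M3 (0.054). Socs3 rose 7.69-fold to 16.97 ± 10.9 CPM (SD, n = 3), with 5.08, 26.4 and 19.4 CPM in M1, M2 and M3, and was lost without M2, M3 or W2 (up to 0.073). Lrig1, which restrains ERBB receptors, fell 1.44-fold from 221 ± 9.21 CPM, and Dusp7, a MAPK phosphatase, fell 1.75-fold from 65.0 ± 9.47 CPM. Lrig1 kept its call in 1 of 6 fits with a library left out (up to 0.11) and Dusp7 in 3 of 6 (up to 0.095). Errfi1, the feedback inhibitor induced by EGFR, was at 57.1 ± 6.42 in mutant and 48.7 ± 4.09 CPM in wildtype (log2 fold change 0.23 ± 0.13, adjusted p = 0.35).

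Of 23 adaptors and signal enzymes, Gab2, Eps8 and Vav3 rose and Grb7 and Nf1 fell. Eps8, an EGFR substrate that acts on actin, rose from 64.0 ± 23.7 to 161 ± 14.4 CPM (SD, n = 3 each), the docking protein Gab2 by 1.93 ± 0.39 on the log2 scale (± SE) and the exchange factor Vav3 by 1.36 ± 0.28. Grb7, an adaptor of ERBB2 and ERBB3, fell by 0.52 ± 0.11 and Nf1, a RAS inhibitor, by 0.67 ± 0.12. These calls had adjusted p-values of 0.010 to 0.026, and each was lost in 1 to 4 of the 6 fits with a library left out. Of 14 genes of the RAS-MAPK cascade only the kinase gene Braf passed, lower by 0.62 ± 0.12 (adjusted p = 0.016, edgeR; lost without M2 or M3, up to 0.078), and the list's log2 fold changes ran from -0.62 to 0.18. Of 16 genes of the PI3K-AKT branch, 3 rose, all subunits of PI3-kinase, and 1 fell. Pik3r1 rose from 114 ± 10.02 to 234.5 ± 41.7 CPM, Pik3cb from 63.8 ± 11.1 to 126 ± 9.85 CPM, and Pik3cd, the leukocyte form, from 2.52 ± 0.435 to 12.2 ± 3.55 CPM (SD, n = 3 each). Of 13 tested leukocyte markers 10 rose in the same libraries, and their part in the rise of Pik3cd was not tested. These 3 held with any library left out.

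Of 29 tested genes that EGF is known to induce in cultured cells, members left out, 6 fell and 1 rose. The list is not limited to genes of the early response. Of all tested genes 4.46% were called lower and 5.59% higher. The median log2 fold change of the 29 genes was -0.50 against 0.01 over all tested genes. Etv5, an ETS factor downstream of MAPK, fell from 22.6 ± 2.67 to 9.08 ± 1.13 CPM, the immediate early gene Ier2 from 79.5 ± 11.1 to 39.5 ± 6.26 CPM, and the AP-1 gene Fos from 53.3 ± 19.3 to 20.0 ± 2.16 CPM (SD, n = 3 each). Ccnd1, cyclin D1, fell from 281 ± 55.6 to 157 ± 16.4 CPM, with 23.4% of its exon length shared with a gene on the opposite strand. Plau and Itga2, of the urokinase protease and a collagen-binding integrin chain, also fell. Against them Vegfa, the angiogenic factor, rose from 13.3 ± 1.85 to 31.7 ± 4.09 CPM. Ier2, Etv5 and Vegfa held with any library left out, whereas Fos was lost without M1, M2 or M3 (up to 0.077), Ccnd1 without M1, M3 or W2 (up to 0.097), and Plau and Itga2 without M1, M3, W2 or W3 (up to 0.10). The lists share members: Dusp and Spry genes stand among the inhibitors too. Over all 111 tested genes of these lists 11 were higher and 12 lower, beside 5.59% and 4.46% of all tested genes. When a library was left out, 6 to 14 were higher and 2 to 15 lower (fewest without M3, most without W1).

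**Figure D5:**
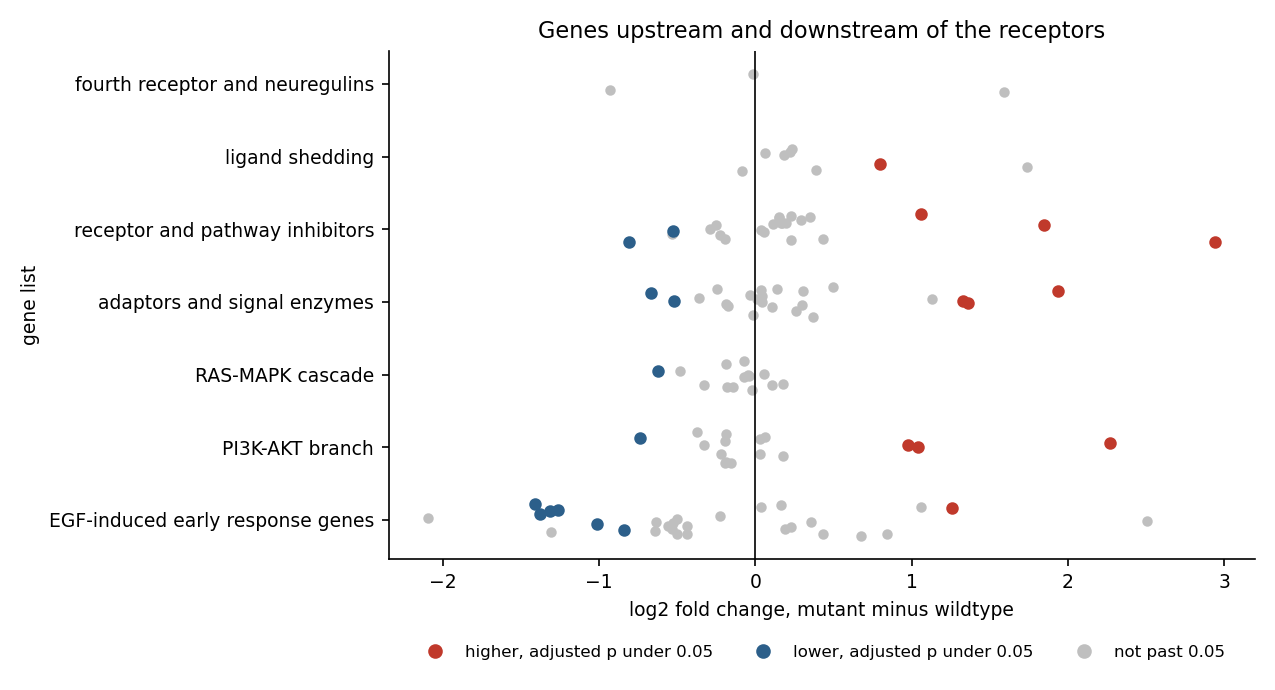
Log2 fold change (mutant minus wildtype) of each tested gene in 7 lists around the receptors, members left out. A point is a gene, red or blue where the adjusted p is under 0.05 and grey otherwise. The list labelled EGF-induced early response genes is not limited to the early response, and 6 of its 7 called genes lie on the lower side. In the RAS-MAPK list 13 of 14 genes are grey.

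Several features of the libraries moved with genotype or stood apart. Each library held 16858005 to 21846406 counts in genes, and Pax6 itself was at 356 to 454 CPM in mutant and 746 to 849 CPM in wildtype. Corneal epithelial markers were present in every library: of 11, 5 fell and 1 rose, and their sum was 20670 to 27320 CPM in mutant and 40200 to 54190 CPM in wildtype. Among them Krt12 was at 5237 ± 1673 CPM in mutant and 18460 ± 3233 CPM in wildtype, and Krt5 at 7281 ± 731 and 10940 ± 1992 CPM (SD, n = 3 each). Of 8 tested conjunctival and goblet markers 7 rose (sum 16260 to 17570 CPM in mutant against 5123 to 8594 CPM in wildtype). Most of this sum was Muc4, the marker not called, at 10150 ± 257 and 5832 ± 2081 CPM (SD, n = 3 each, adjusted p = 0.087, edgeR). Krt13, which was called, was at 3986 ± 131 CPM in mutant and 196 ± 37.0 CPM in wildtype. The leukocyte markers had a sum of 242 to 294 against 58.8 to 79.7 CPM. Of 14 stromal markers 7 rose and 1 fell (sum 886 to 5219 against 523 to 592 CPM, highest in M1). No marker of these 4 lists was at 0 in all libraries. W1 had a sum of 22.1 CPM over Schwann cell, melanocyte and nerve markers against 223 to 421 CPM in the other libraries, and W3 one of 1523 CPM over lens, iris and retina markers, against 24.1 to 81.9 CPM. Markers of vessel, corneal endothelial, muscle and gland cells were also measured: of lacrimal and Meibomian gland markers 3 of 6 (Scgb2b27, Mup4 and Elovl3) were at 0 in every library, and the rest, mostly Ltf, summed to 472 to 1261 CPM in mutant and 22.5 to 73.4 CPM in wildtype. Skeletal muscle markers summed to 2.70 to 6.94 and 10.2 to 39.8 CPM, corneal endothelial markers to 1524 to 2107 and 1065 to 1275 CPM, and vessel markers to 77.8 to 180 and 11.9 to 80.3 CPM. Only M1 was female by its counts. In these bulk samples, fewer cells of a type and less RNA per cell cannot be told apart, and the part of these differences in the changes of Hbegf, Epgn and the other genes was not tested. The log2 fold change of Hbegf was -1.25 without W1 and -1.17 without W3. It was -1.05 with sex as a covariate and -1.03 without M1. As M1 was the only female library, sex and that library cannot be told apart. These fits do not test the part of the marker differences.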

How the data were processed

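Total RNA of corneas from 3 wildtype and 3 Pax6 heterozygous mutant mouse samples was sequenced as stranded libraries with paired reads of 100 nucleotides, per the labels' protocols. Trim Galore, HISAT2, SAMtools, HTSeq and edgeR are named with build GRCm38, per the submitters' processing notes; no source used here gives versions, settings or the strand option. Each deposited file holds whole counts for every Ensembl gene of a library, with no normalization by the authors. The summary lines, 53.3% of all counts summed over the 6 libraries, were left out. Names, positions and exon lengths came from GENCODE M21 (GRCm38), which matched 55240 of 55421 identifiers.

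Counts were tested in R 4.3.3 with edgeR 4.0.16: filterByExpr (minimum count 10, minimum total 15), TMM factors, and the quasi-likelihood test with genotype as the only term, adjusted by Benjamini-Hochberg over 15209 genes at 0.05. CPM are scaled by library total and TMM factor. Standard errors come from the log2 fold change and its F statistic. Chi-square over degrees of freedom between libraries of the same group was 19.5 to 58.6, far beyond sampling noise, so none were merged. The depth allows 3 counts over a group, 0.0530 CPM in mutant and 0.0556 CPM in wildtype, where 0 are seen, for counting error only.

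The members, lists and rules were chosen with earlier results of these data known. Named are all members, up to 4 genes with the smallest p per list and direction, Erbb4, the neuregulins, Adam17, Adam10 and Errfi1, and up to 2 abundant markers a list; Plau and Itga2 were added after their values were seen, and 2 genes that the rule names are not reported here. For each member with a mean of at least 5 CPM, the 2 protein-coding genes most alike were found by the root-mean-square difference of centred log2(CPM + 0.5). Alternatives were RLE, upper-quartile or no factors, DESeq2 1.42.0, limma-voom (limma 3.58.1) with and without quality weights, 2 other filters, removal of mitochondrial and structural RNA, sex as a covariate, stricter thresholds, and libraries left out. The scripts were tested on simulated data.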

Additional observations from a re-analysis of the deposited data

How the results depend on the processing

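No paired analysis was possible because the labels give the mutant and wildtype libraries no shared replicate numbers. The 2 members called lower became 1 without composition factors, by limma-voom and at an adjusted p of 0.01, 0 with a log2 fold limit of 1, 3 by limma-voom with quality weights, and 1 to 2 with a library left out. The 0 members called higher became 1 without composition factors, by DESeq2, with the filter of 1 CPM and without M1 and W1 together, 2 by limma-voom with quality weights and without a low-count filter, and 0 to 2 with a library left out. Hbegf was called in 18 of 19 alternatives and Epgn in 12 of 19. Of the 11 higher and 12 lower pathway genes, 6 and 2 passed at 0.01, 0 and 0 with the log2 fold limit, 5 were lower with sex as a covariate, and 6 to 14 and 2 to 15 passed with a library left out. Over all genes, 850 higher and 679 lower became 1325 and 1033 by DESeq2, 1588 and 1137 without a filter, 456 and 368 with sex as a covariate, 307 and 261 at 0.01, 158 and 79 with the fold limit, and 340 to 1227 and 271 to 847 with a library left out. The direction of Erbb3 turned without W1 (log2 fold change 0.10), without M1 and W1 together (0.054) and by limma-voom with quality weights (0.051), and that of Egf without M3 (0.0077) or W3 (0.19); with a library left out their values ran from -0.12 to 0.10 and from -0.38 to 0.19. The other 8 members kept their direction in all 19 alternatives. The causes were not tested. The fall of Epgn rests on 1 to 33 counts a mutant library.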

Other observations

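Neither protein-coding gene beside the ligands of chromosome 5 was called lower. Mthfd2l, a mitochondrial folate enzyme that ends just before Epgn, had a log2 fold change of -0.37 ± 0.29 (SE, adjusted p = 0.50, edgeR). Parm1, the protein-coding gene that follows Btc, rose from 105 ± 19.6 to 181 ± 27.8 CPM (SD, n = 3 each, adjusted p = 0.027). The noncoding genes Gm19610, Gm23092 and Gm19619 between the ligands had 0 to 6 counts a library and were not tested. Epgn was thus the gene called lower between Mthfd2l and Parm1, with Ereg and Areg higher in every mutant library and Btc lower without passing the test.

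The genes most like each member over the 6 libraries, among 9792 protein-coding genes, were found as a description only. For Egfr they were Spred1, an inhibitor of the RAS-MAPK cascade, and Unc119b, at root-mean-square differences of 0.016 and 0.020 on the log2 scale. For Hbegf they were Snx25 and Trim37 (0.099 each), whose log2 fold changes were -1.26 and -1.01 beside -1.18 of Hbegf. For Ereg they were Rspry1 and Heatr5a (0.062 and 0.064), for Tgfa Sox7 and Sema3f (0.096 and 0.098), and for Areg Atp13a3 and Ppp1cb (0.039 and 0.058). For Btc they were Ppip5k1 and Smad6 (0.040 and 0.044), for Erbb2 Atxn2 and Vamp1 (0.050 each), and for Erbb3 Tapbp and Pex26 (0.021 and 0.026). Epgn, at a mean under 5 CPM, and Egf were left out of this search.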
